A study of Rattus norvegicus with 12 samples.

Results

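The 4 genes examined belong to the proteolysis of the extracellular matrix: Mmp2, Mmp14 and Mmp3, which encode matrix metalloproteinases, and Timp1, which encodes an inhibitor of them. They were taken by identifier from a count table of 32622 rat Ensembl genes, as ENSRNOG00000016695 (Mmp2), ENSRNOG00000010947 (Mmp14), ENSRNOG00000032626 (Mmp3) and ENSRNOG00000010208 (Timp1). All 4 passed the filter on low counts, which left 13215 genes. The cells were fibro-adipogenic progenitors, mesenchymal cells that lie between muscle fibres and can form fat cells or fibroblasts, cultured as primary cells from the soleus muscle of rats. The 6 groups, with 2 libraries each, were control rats (C), rats after 7 days of hindlimb suspension (HS7) and rats after 14 days of it (HS14), each before (day 0) and 3 days into adipogenic induction (day 3). Hindlimb suspension lifts the hind legs off the ground, so that the soleus carries no load. The medium of the day 3 cells held insulin, dexamethasone and 3-isobutyl-1-methylxanthine, and no group was kept to day 3 without it, so induction and time in culture cannot be told apart. The labels do not give the strain, age or number of the rats, nor whether the replicates of a group are different animals or cultures. A p-value here thus reflects only how far replicates differ, and that may be technical. The test estimates this spread for a gene partly from the other genes.

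Matrix metalloproteinases are zinc-dependent enzymes that cut collagens, fibronectin, proteoglycans and other proteins outside the cell. Most are made as inactive proenzymes. Mmp14 sits in the cell membrane, cuts fibrillar collagen and activates the proenzyme of Mmp2, a secreted gelatinase that digests denatured collagen and type IV collagen. Mmp3 (stromelysin-1) is a secreted enzyme with many substrates that also activates other metalloproteinases, and its transcription is known to depend on AP-1 factors. Timp1 is a secreted inhibitor that binds the active site of most of these enzymes but inhibits Mmp14 only weakly. RNA levels do not show how much of an enzyme is active.

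Libraries held between 15105521 and 21484885 counts. Levels are given as CPM (counts scaled to 1000000 per library) after TMM scaling, in which library sizes are adjusted so that the bulk of genes does not change. Between 68.3% and 70.6% of the counts from 1 to 20 in a library were even numbers, so both reads of a pair may have been counted, and counting errors are then larger than the counts alone imply. Over genes with at least 20 counts, the replicates of a group differed with a chi-square per degree of freedom of 2.69 to 7.36, which counting both reads of a pair would itself raise, and they were used as 2 libraries each. The table pairs no identifier with a symbol, and 0 of the 32622 identifiers matched the reference table of gene names. Marker genes of the labelled cell type and of other cell types, other metalloproteinases and inhibitors, and matrix genes were therefore not analysed here. In such bulk libraries a change in the RNA per cell and a change in the share of cells that make it cannot be told apart.

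All 4 genes rose over the 3 days of induction in cells of all 3 treatments, and no library of day 3 overlapped with a library of day 0 for any of them. By edgeR's quasi-likelihood test, 25.8% of the tested genes rose in control cells, 24.8% in HS7 cells and 27.7% in HS14 cells. Both day 3 libraries lay above both day 0 libraries for 37.5% of the tested genes in control cells, 35% in HS7 cells and 39.6% in HS14 cells, so the lack of overlap alone sets no gene apart. The median log2 change of the 4 genes was 1.80 in control, 2.04 in HS7 and 2.30 in HS14 cells.

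Mmp14, the membrane-bound activator, stood at 1284 and 1227 CPM in the control libraries at day 0 and at 3179 and 3213 CPM at day 3. In HS7 cells it went from 909 and 993 CPM to 3381 and 3461 CPM. In HS14 cells it went from 938 and 929.5 CPM to 3891 and 3899.8 CPM. The unloaded libraries thus started below the control libraries and ended above them, and those of HS7 and HS14 overlapped at day 0. At day 3, however, HS7 and control cells did not differ past the threshold (adjusted p = 0.150 in edgeR). The share of tested genes with both HS7 libraries above both control libraries at day 3 was not computed. At day 0 the unloaded libraries lay below those of control for 28.3% of the tested genes in HS7 and 28.4% in HS14. At day 3 those of HS14 lay above those of control for 34.9%. The fold rise was 2.55 in control cells (95% interval 2.39 to 2.71), 3.60 in HS7 cells (3.37 to 3.84) and 4.17 in HS14 cells (3.91 to 4.45), with adjusted p = 1.01e-24, 1.21e-28 and 2.73e-30 in edgeR.

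Mmp2, the secreted gelatinase that Mmp14 activates, had the same order of group means as Mmp14. It stood at 6588 and 6401 CPM in control, 5233 and 5338 CPM in HS7 and 4794 and 4811 CPM in HS14 cells at day 0. At day 3 it stood at 13660.2 and 13603 CPM in control, 13784 and 14253 CPM in HS7 and 15937 and 15925 CPM in HS14 cells. The 3 treatments were thus ordered one way at day 0 and the opposite way at day 3, and the libraries of neighbouring groups did not overlap. At day 3, however, HS7 and control cells did not differ past the threshold (ratio 1.03, adjusted p = 0.554 in edgeR). How many tested genes had both HS7 libraries above both control libraries at day 3 was not computed, so that step of the order is a description only. A lack of overlap was common: both HS14 libraries lay below both HS7 libraries at day 0 for 25.7% of the tested genes. At day 3 they lay above them for 31.5%. The rise was 2.10-fold in control cells (95% interval 1.99 to 2.21), 2.65-fold in HS7 cells (2.52 to 2.79) and 3.32-fold in HS14 cells (3.15 to 3.49), with adjusted p = 1.93e-24, 5.36e-28 and 8.13e-31 in edgeR. Mmp2 was among the genes with the most counts in every library, between place 4 and place 13 of the table. It took 0.653% ± 0.0134 of all counts in control cells at day 0 and 1.38% ± 0.00433 at day 3 (SD, n = 2). In HS14 cells the share rose from 0.471% ± 0.00278 to 1.50% ± 0.00171 (SD, n = 2). Counts also grow with the length of a transcript, so these places do not compare levels between genes.

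Mmp3 was near the limit of detection at day 0 and had the largest fold rise of the 4. The control libraries held 16 and 24 counts at day 0, the HS7 libraries 18 and 18, and the HS14 libraries 17 and 24, which is 0.848 to 1.33 CPM. At day 3 it stood at 33.4 and 33.2 CPM in control cells, 21.9 and 20.2 CPM in HS7 cells and 32.2 and 29.4 CPM in HS14 cells. HS7 libraries were thus below all other day 3 libraries. The rise was 30.5-fold in control cells (95% interval 23.3 to 40.0), 18.95-fold in HS7 cells (14.2 to 25.3) and 29.9-fold in HS14 cells (22.8 to 39.2), with adjusted p = 1.47e-22, 1.01e-19 and 1.25e-22 in edgeR. The day 0 level behind these folds rests on 40, 36 and 41 counts over the 2 libraries of a group. The exact Poisson interval of the control level at day 0, 0.775 to 1.48 CPM, covers counting error only and widens to 0.662 to 1.67 CPM if each pair of reads was counted as 2. Mmp3 could be judged over induction and at day 3, but at day 0 it was too low to judge differences between treatments, for which only wide intervals are given below.

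Timp1, the inhibitor, had fold rises above those of Mmp2 and Mmp14 and below those of Mmp3, with no overlap of the 95% intervals within a treatment. It stood at 494 and 478 CPM in control, 458 and 435 CPM in HS7 and 425 and 468 CPM in HS14 cells at day 0. At day 3 it stood at 2316 and 2341 CPM in control, 2049.9 and 2127 CPM in HS7 and 2618 and 2601 CPM in HS14 cells. HS14 libraries were thus the highest at day 3 and HS7 libraries the lowest. The rise was 4.79-fold in control cells (95% interval 4.47 to 5.14), 4.68-fold in HS7 cells (4.36 to 5.01) and 5.85-fold in HS14 cells (5.45 to 6.27), with adjusted p = 1.86e-30, 4.88e-30 and 5.47e-32 in edgeR.

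**Figure D1:**
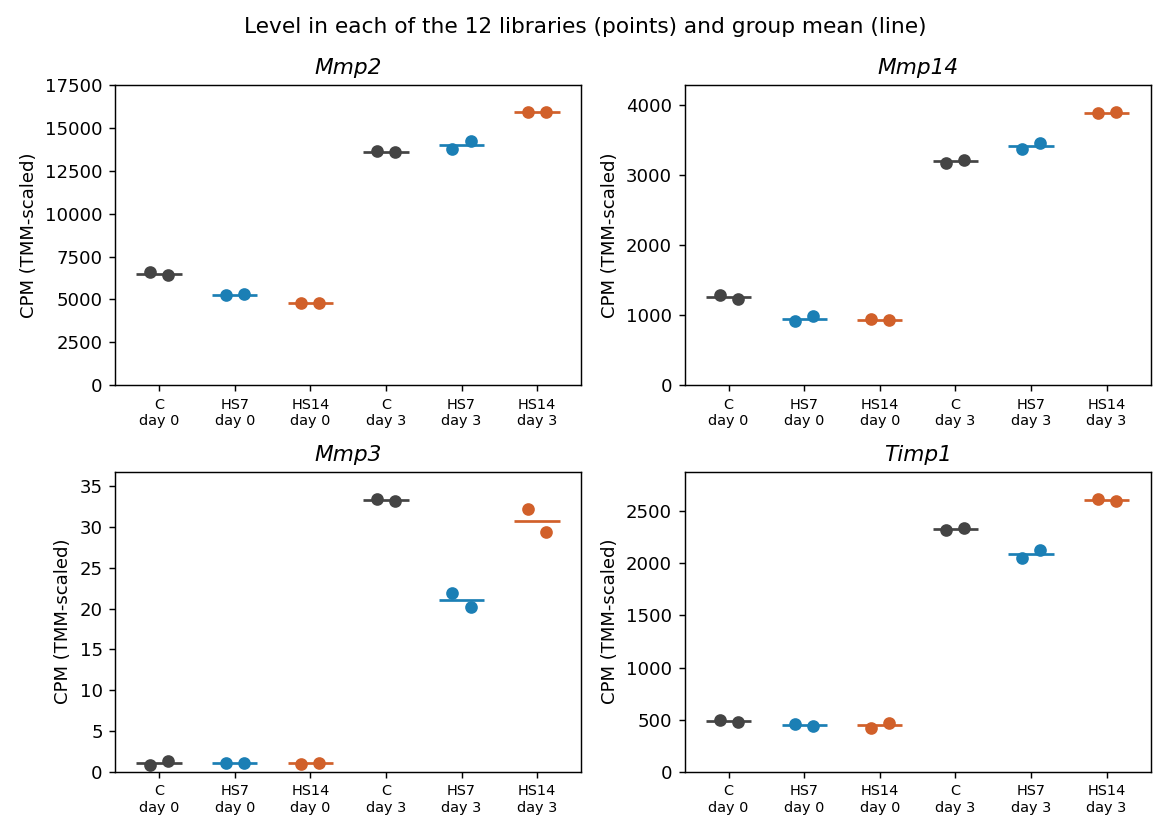
Level of each gene in CPM (vertical axis, from 0) in the 12 libraries, grouped by treatment (C, HS7, HS14) and day of induction; points are libraries and lines are means of 2. Mmp2 and Mmp14 are highest in control cells at day 0 and in HS14 cells at day 3, while Mmp3 and Timp1 are lowest in HS7 cells at day 3.

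Set among all tested genes, the rises of the 4 genes differed in how far out they lay. Mmp3 ranked 87 among 13215 genes by fitted log2 change in control cells, 91 in HS7 and 78 in HS14 cells. Timp1 ranked 352, 313 and 303, Mmp14 754, 438 and 437, and Mmp2 999, 640 and 590. Counting genes that rose at least as much in each of the 3 treatments, 25 did so for Mmp3, 167 for Timp1, 267 for Mmp14 and 375 for Mmp2. Fitted changes of genes with few counts are imprecise, so these places are descriptions.

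**Figure D2:**
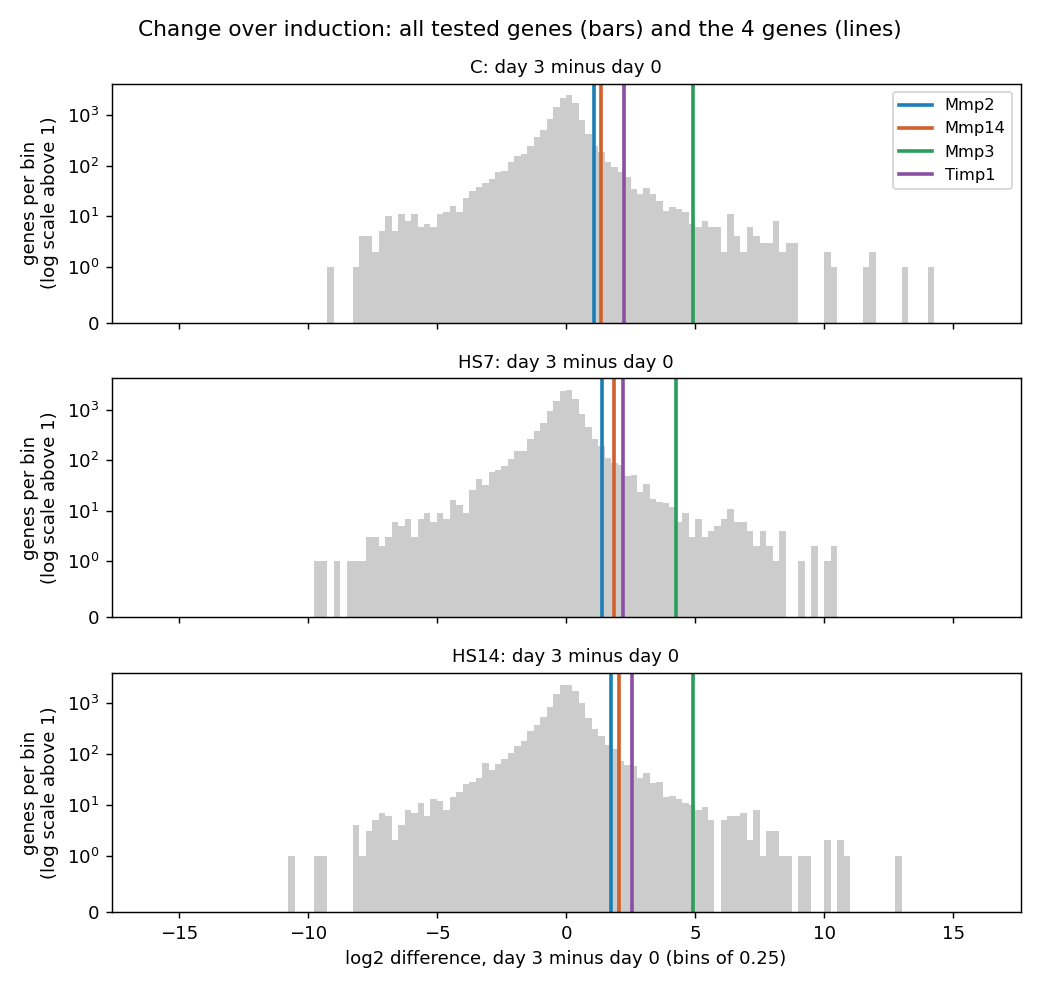
Number of tested genes per bin of log2 change from day 0 to day 3 (grey bars; the vertical axis is logarithmic above 1) in control, HS7 and HS14 cells, with coloured lines at the 4 genes. The order Mmp2, Mmp14, Timp1, Mmp3 holds in the 3 panels, with log2 changes of 1.07, 1.35, 2.26 and 4.93 in control cells and 1.73, 2.06, 2.55 and 4.90 in HS14 cells.

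Upstream sequences are shown for Mmp3 and Timp1, the 2 of the 4 genes found in the RefSeq promoter table (build GRCr8). Mmp2 and Mmp14, which also rose in every treatment, were not found in it, so none is shown for them. Each sequence runs from base 250 to base 21 before the transcription start used in that promoter table. The Mmp3 window is chr8:12925031-12925260 on the plus strand, and the Timp1 window is chrX:3771143-3771372 on the minus strand, inside the annotated span of the gene. Capitals mark matches on either strand to the AP-1 motif TGANTCA, the ETS-type (PEA3) motif AGGAAG and the TATA box TATAAA, which do not overlap here.
Mmp3: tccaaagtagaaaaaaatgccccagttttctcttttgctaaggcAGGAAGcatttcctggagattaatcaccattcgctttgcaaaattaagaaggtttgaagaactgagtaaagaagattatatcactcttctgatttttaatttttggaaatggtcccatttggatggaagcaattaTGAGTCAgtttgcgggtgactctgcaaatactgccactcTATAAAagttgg
Timp1: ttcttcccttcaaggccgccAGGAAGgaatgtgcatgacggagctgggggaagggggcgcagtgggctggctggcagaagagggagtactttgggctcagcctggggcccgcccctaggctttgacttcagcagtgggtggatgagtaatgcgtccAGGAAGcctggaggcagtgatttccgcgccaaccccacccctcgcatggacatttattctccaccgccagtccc
In the Mmp3 window the AP-1 letters lie at bases 71 to 65 before the start, the TATA box at bases 32 to 27 and the ETS-type letters at bases 206 to 201. In the Timp1 window the ETS-type letters occur at bases 230 to 225 and 94 to 89. Among 33469 rat promoter windows of the same 230 bases, 5.84% held the AP-1 motif, 27.3% the ETS-type motif and 12.2% the TATA box. A match describes letters and does not show that a factor binds there. Only exact matches were marked, so unmarked letters do not show that a site is missing. The Mmp3 and Timp1 windows each hold tgagtaa, which differs from TGANTCA in its next-to-last letter and was not marked.

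Before induction, cells of unloaded rats were compared with control cells. Mmp2 and Mmp14 were lower than in control cells after both periods, and Mmp3 and Timp1 did not pass the threshold. Of all tested genes, 11.3% were lower after 7 days (8.88% with scaling to the total count) and 8.89% after 14 days (10.6% with that scaling). Both comparisons use the same control libraries. Mmp2 stood at 0.814 of the control level after 7 days (95% interval 0.774 to 0.856, adjusted p = 3.93e-08) and at 0.739 after 14 days (0.703 to 0.778, adjusted p = 3.96e-12) in edgeR. Mmp14 stood at 0.757 of control (0.711 to 0.806, adjusted p = 5.88e-09) and 0.744 (0.698 to 0.792, adjusted p = 1.12e-09). Both unloaded libraries of each period lay below both control libraries for these 2 genes, as they did for 28.3% of the tested genes after 7 days and 28.4% after 14 days.

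Timp1 stood at 0.919 of the control level at day 0 after each period, with adjusted p = 0.0668 after 7 days and 0.0816 after 14 days in edgeR. Its unloaded libraries lay below the control libraries in both comparisons, as for 28.3% of the tested genes after 7 days and 28.4% after 14 days. These differences are sensitive to the processing. After 7 days the difference passed in edgeR with DESeq2 size factors (log2 difference -0.13, adjusted p = 0.0445), and it was -0.16 without the first HS7 library at day 0. After 14 days it passed with scaling to the total count (-0.16, adjusted p = 0.0193) and without the second HS14 library at day 0 (-0.19, adjusted p = 0.0306). For Mmp3 the ratio to control was 1.02 after 7 days with a 95% interval of 0.638 to 1.62, and 0.943 after 14 days with an interval of 0.599 to 1.48. Its libraries overlapped, and at this depth differences as large as those limits cannot be told from none.

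Between the 2 periods of unloading at day 0, Mmp2 was lower after 14 than after 7 days, at 0.909 of the 7-day level (95% interval 0.864 to 0.956, adjusted p = 0.00757 in edgeR). Of all tested genes, 6.26% were lower (11.5% with scaling to the total count), and for 25.7% both HS14 libraries lay below both HS7 libraries. This call ended without either HS14 library at day 0 (adjusted p = 0.0738 without the first, 0.0571 without the second) and in a fit of the 4 libraries alone (adjusted p = 0.0744). Mmp14, Mmp3 and Timp1 did not pass, and their libraries overlapped. For Mmp14 the ratio was 0.982 (0.922 to 1.05) and for Timp1 0.9996 (0.934 to 1.07).

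At day 3 the picture differed by gene and by period. After 7 days of unloading Mmp3 and Timp1 were lower than in control cells, while Mmp2 and Mmp14 did not pass the threshold. Of all tested genes, 7.43% were lower. Mmp3 stood at 0.632 of the control level (95% interval 0.528 to 0.757, adjusted p = 0.000181 in edgeR), and both HS7 libraries lay below both control libraries, as for 25.9% of the tested genes. Timp1 stood at 0.897 of control (0.839 to 0.958, adjusted p = 0.0179 in edgeR), a smaller difference that lost its call without the first or the second control library at day 3 (adjusted p = 0.0884 and 0.140) or without the first HS7 library at day 3 (adjusted p = 0.122). For Mmp2 the ratio was 1.03 (0.978 to 1.08) and for Mmp14 1.07 (1.01 to 1.14, adjusted p = 0.150 in edgeR).

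After 14 days of unloading Mmp2, Mmp14 and Timp1 were higher than in control cells at day 3, and Mmp3 did not pass. Of all tested genes, 16% were higher (10% with scaling to the total count). Mmp14 stood at 1.22 times the control level (95% interval 1.15 to 1.30, adjusted p = 2.70e-06), Mmp2 at 1.17 times (1.11 to 1.23, adjusted p = 4.98e-06) and Timp1 at 1.12 times (1.05 to 1.20, adjusted p = 0.00630) in edgeR. For each of these genes both HS14 libraries lay above both control libraries, as for 34.9% of the tested genes. Mmp3 stood at 0.924 of control (0.776 to 1.10, adjusted p = 0.531 in edgeR). Scaling to the total count moved the median gene of this comparison by -0.11 on the log2 scale. With it the log2 difference was 0.12 for Mmp2 and 0.18 for Mmp14, against 0.22 and 0.29 with TMM, and both still passed, while that of Timp1 was 0.059 (adjusted p = 0.373) against 0.16. The call of Timp1 also ended without the first control library (adjusted p = 0.0712) or the first HS14 library at day 3 (adjusted p = 0.0546).

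In the direct comparison at day 3, all 4 genes were higher after 14 than after 7 days of unloading, where 11.6% of the tested genes were higher (5.59% with scaling to the total count). Mmp3 was 1.46 times as high (95% interval 1.22 to 1.75, adjusted p = 0.00144) and Timp1 1.25 times (1.17 to 1.33, adjusted p = 2.07e-06) in edgeR. Mmp2 and Mmp14 were both 1.14 times as high (1.08 to 1.20 and 1.07 to 1.21, adjusted p = 0.000180 and 0.00154 in edgeR). For each gene both HS14 libraries lay above both HS7 libraries, as for 31.5% of the tested genes. Scaling to the total count moved the median gene by -0.11 on the log2 scale here, and with it the log2 differences of Mmp2 and Mmp14 were 0.071 and 0.074 (adjusted p = 0.148 and 0.231), against 0.18 and 0.19 with TMM, while Mmp3 and Timp1 still passed.

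**Figure D3:**
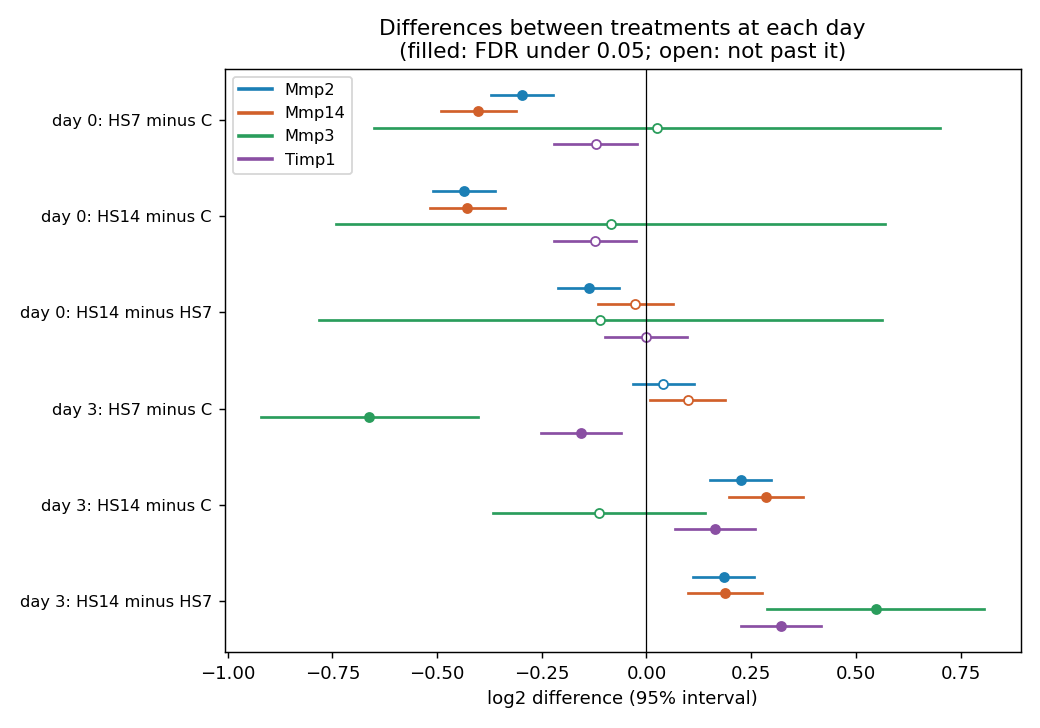
Log2 difference of each gene (horizontal axis, 95% interval) between treatments at day 0 and at day 3; filled points passed an FDR of 0.05. Mmp2 and Mmp14 lie left of 0 in both day 0 comparisons with control (-0.30 to -0.44) and right of it in HS14 against control cells at day 3 (0.22 and 0.29), and the wide bars are those of Mmp3 at day 0.

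The rise over induction was larger in unloaded than in control cells for Mmp2 and Mmp14 when the 2 rises were tested against each other. The fold rise of Mmp14 was 1.41 times that of control cells after 7 days (log2 difference of the changes 0.50, SE 0.063, adjusted p = 2.15e-07) and 1.64 times after 14 days (0.71, SE 0.063, adjusted p = 2.16e-11) in edgeR. The fold rise of Mmp2 was 1.26 times that of control cells after 7 days (0.34, SE 0.051, adjusted p = 6.65e-06) and 1.58 times after 14 days (0.66, SE 0.051, adjusted p = 8.57e-13) in edgeR. In the whole table the change was more positive than in control cells in 4.7% of the tested genes after 7 days and in 11% after 14 days (8.23% with scaling to the total count). Both tests use the control libraries. For both genes the unloaded cells were lower at day 0 after both periods, but at day 3 they were higher past the threshold only after 14 days. After 7 days the log2 differences from control at day 3 were 0.040 for Mmp2 and 0.098 for Mmp14, neither past the threshold. At day 0 they were -0.30 and -0.40.

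Timp1 rose more than in control cells after 14 days, with a fold rise 1.22 times as large (log2 difference of the changes 0.29, SE 0.067, adjusted p = 0.00150 in edgeR). After 7 days its fold rise was 0.976 of that of control cells with a 95% interval of 0.887 to 1.07 (adjusted p = 0.826 in edgeR). For Mmp3 the fold rise was 0.621 of that of control cells after 7 days (0.375 to 1.03, adjusted p = 0.259 in edgeR) and 0.980 after 14 days (0.595 to 1.61, adjusted p = 0.975 in edgeR). These wide intervals go with its 16 to 24 counts per library at day 0.

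The 14-day response was also set against the 7-day response, a comparison added after the results had been seen, in which the change was more positive in 4.14% of the tested genes. The fold rise of Mmp2 was 1.25 times as large after 14 as after 7 days (log2 difference 0.32, SE 0.051, adjusted p = 2.31e-05) and that of Timp1 1.25 times as large (0.32, SE 0.067, adjusted p = 0.00123) in edgeR. That of Mmp14 was 1.16 times as large (0.21, SE 0.063, adjusted p = 0.0245 in edgeR), a call that ended with DESeq2 size factors (adjusted p = 0.0504), with scaling to the total count (adjusted p = 0.0545), and without the second HS7 or the second HS14 library at day 0 (adjusted p = 0.0900 and 0.0678), the first HS7 library at day 3 (adjusted p = 0.0608) or either HS14 library at day 3 (adjusted p = 0.0766 and 0.0623). Mmp3 did not pass (log2 difference 0.66, SE 0.36, adjusted p = 0.296 in edgeR).

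The inhibitor was also followed relative to each enzyme, as the ratio of their counts within a library, which does not depend on the scaling between libraries. Timp1 counts were 7.48% ± 0.0225 of Mmp2 counts in control cells at day 0 and 17.1% ± 0.182 at day 3 (SD, n = 2). In HS7 cells the ratio went from 8.45% ± 0.424 to 14.9% ± 0.0344 and in HS14 cells from 9.29% ± 0.615 to 16.4% ± 0.0686 (SD, n = 2). The ratio was thus lowest in control cells at day 0 and highest in control cells at day 3, with no overlap between control and unloaded libraries at either day. It grew 2.28-fold in control cells and 1.76-fold in both HS7 and HS14 cells.

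Relative to Mmp14 the pattern was similar, but it is not a separate observation. Both ratios share the Timp1 counts, and Mmp2 and Mmp14 changed alike. Timp1 counts were 38.5% and 38.9% of Mmp14 counts in the control libraries at day 0 and 72.8% and 72.9% at day 3. The HS7 libraries went from 50.4% and 43.8% to 60.6% and 61.4%, and the HS14 libraries from 45.3% and 50.3% to 67.3% and 66.7%. Here too control libraries were the lowest at day 0 and the highest at day 3. With 2 libraries a group no test of these ratios was made, and the share of other gene pairs without such overlap was not computed. Between the enzymes, Mmp14 counts were 19.3% ± 0.225 of Mmp2 counts in control cells at day 0 and 23.4% ± 0.243 at day 3 (SD, n = 2), 18.0% ± 0.864 and 24.4% ± 0.173 in HS7 cells, and 19.4% ± 0.173 and 24.5% ± 0.0523 in HS14 cells. This ratio grew 1.21-, 1.36- and 1.26-fold in control, HS7 and HS14 cells, against 1.88-, 1.30- and 1.40-fold for Timp1 to Mmp14. The ratios compare counts, which depend on transcript length, so their size does not say which RNA is the more abundant.

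**Figure D4:**
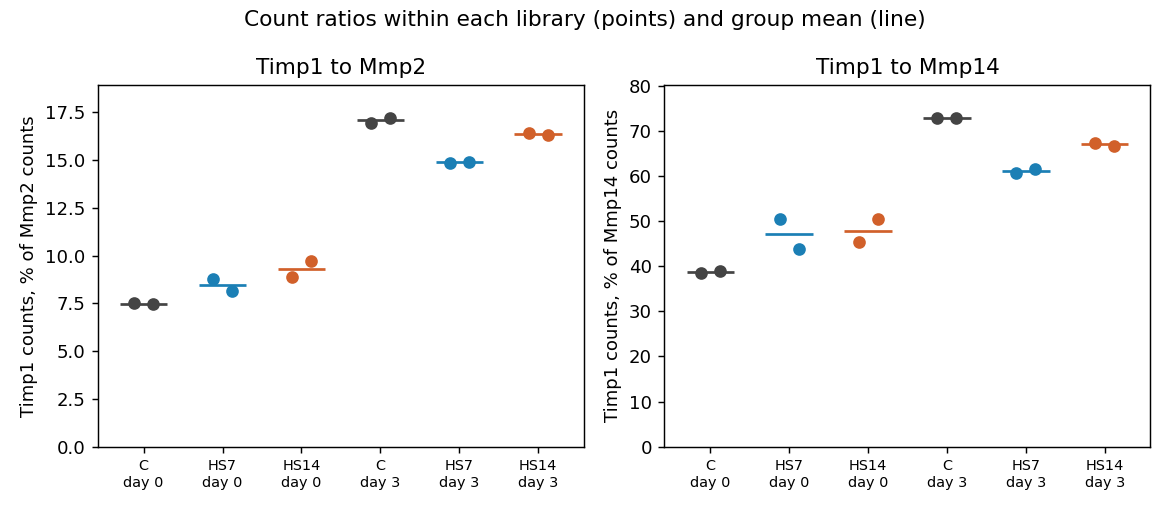
Timp1 counts as a percentage of Mmp2 counts (left) and of Mmp14 counts (right), on axes from 0, in the 12 libraries; points are libraries and lines are means of 2. Control cells have the lowest ratios at day 0 (7.48% and 38.7%) and the highest at day 3 (17.1% and 72.9%).

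The genes with the pattern most like each of the 4 were ranked by the Pearson correlation of log2 CPM among the other 13214 tested genes. Over the 12 libraries, where day 3 stands apart from day 0, Mmp14 was the gene most like Mmp2 and Mmp2 the gene most like Mmp14. Timp1 was in place 2 for Mmp3. ENSRNOG00000019996, which has no symbol here, was in place 1 for both Mmp3 and Timp1, and it rose in the 3 treatments by log2 changes of 1.94, 1.73 and 2.07. With the mean of each day subtracted, so that differences between treatments and replicates remain, Mmp2 and Mmp14 still had r = 0.96 over 12 libraries and stood in place 6 and place 5 for each other. In that ranking ENSRNOG00000026163 was in place 1 for Mmp2 and place 2 for Mmp14. Timp1 correlated with Mmp2 at 0.64, with Mmp14 at 0.59 and with Mmp3 at 0.56, and Mmp3 with Mmp2 at 0.091 and with Mmp14 at -0.019. The points share libraries and their scaling, so these values are descriptions. By Spearman correlation none of the 3 genes nearest to any of the 4 over 12 libraries were among the 3 by Pearson, so places among so many close values depend on the measure.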

How the data were processed

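The 12 libraries of poly(A) RNA were stranded (TruSeq) and read at 51 bp by a NextSeq 2000, per the labels. The authors deposited 1 table of raw counts per Ensembl gene; per the submitters' processing notes, Rnor_6.0 was the genome build, and STAR 2.7, featureCounts 1.6.4, FastQC 0.11.9 and DESeq2 are listed with no roles. Neither settings, strand use and annotation release nor the counting of read pairs is stated there, so overlapping genes may share reads.

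Groups came from the labels. Counts were filtered with filterByExpr (13215 genes kept) and scaled by TMM. They were fitted with edgeR 4.0.16 (R 4.3.3, glmQLFit, glmQLFTest) as 6 group means over 12 libraries, with 6 residual degrees of freedom. Because edgeR moderates the spread of a gene by that of all tested genes, the median total was 35.4 degrees of freedom. All tests were two-sided, with Benjamini-Hochberg adjustment over all tested genes and an FDR of 0.05, in 9 comparisons and 2 differences of responses, plus 1 added later. Standard errors and 95% intervals were derived from the F statistic. The script was tested on simulated data. The genes to name were the 4 members and, for each, the 3 most similar by correlation (prior count 2); lists of related genes and cell type markers had been set but need symbols, so they were not used. Members, lists and tests were chosen with earlier results of these data known. Alternatives were other scalings, filters, DESeq2 1.42.0, halved counts, only the libraries compared, a replicate block and leaving out each library.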

Additional observations from a re-analysis of the deposited data

Results flagged for a closer look

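The change from day 0 to day 3 differed between treatments, by edgeR's test of the difference of the responses, in 8 of the 12 cases tested. Against the control response, 4.7% of all tested genes were more positive in the 7-day and 11% in the 14-day cells. In the 14-day against the 7-day cells, 4.14% were more positive. Of the genes called in either direction, 45.3%, 50.2% and 48.2% were more positive in these comparisons, so the shares in either direction are larger. The log2 difference from the control response after 7 days of unloading was 0.34 for Mmp2 and 0.50 for Mmp14. After 14 days it was 0.66 for Mmp2, 0.71 for Mmp14 and 0.29 for Timp1. Between the 14-day and 7-day responses, compared after the results had been seen, it was 0.32 for Mmp2, 0.21 for Mmp14 and 0.32 for Timp1. This comparison follows from the 2 differences from the control response, so its cases are not independent of theirs. Mmp3 had no such difference past the threshold, with few counts at day 0. The groups of 2 libraries are too small to tell an outlying library.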

How the results depend on the processing

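Of 624 recomputed log2 differences of the 4 genes, 587 kept their direction and their side of the threshold. The 3 rises over induction kept both for all 4 genes under every alternative run, as did the differences of Mmp2 and Mmp14 from control at day 0 and, after 14 days, at day 3, and those of their responses from the control response. At day 0 Timp1 passed against control after 7 days with DESeq2 size factors (log2 difference -0.13) and in the DESeq2 test (-0.13), and after 14 days with scaling to the total count (-0.16); leaving out libraries gave -0.16 to -0.086 and -0.19 to -0.047. At day 3 Timp1 lost its call against control after 14 days with scaling to the total count (0.059), and leaving out libraries gave 0.15 to 0.18, and -0.19 to -0.14 after 7 days. Between the unloaded groups, scaling to the total count left 0.071 for Mmp2 and 0.074 for Mmp14 at day 3. At day 0 Mmp2 stood at -0.14 in a fit of the libraries compared and at -0.15 to -0.12 leaving out libraries. Timp1 turned to 0.017 with DESeq2 size factors and 0.017 in the DESeq2 test, and to -0.076 to 0.065 leaving out libraries, where Mmp14 ranged from -0.087 to 0.040 and Mmp3 from -0.30 to 0.039. Against control at day 0, leaving out libraries gave -0.26 to 0.38 for Mmp3 after 7 days and -0.37 to 0.27 after 14 days. For the difference of its 14-day from the control response Mmp3 had 0.012 with halved counts and -0.38 to 0.27 leaving out libraries, and for the 7-day response Timp1 had -0.080 to 0.0011. For the 14-day against the 7-day response Mmp14 had 0.19 with DESeq2 size factors, 0.19 with scaling to the total count and 0.15 to 0.27 leaving out libraries. Apart from the construction of each alternative, the cause was not tested.

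The number of genes called moved by over 1.5 times only on leaving out a library: between 14 and 7 days from 1550 to 862 and 887 at day 0 (without the first and the second HS14 library), from 2988 to 1848 and 1700 at day 3 (without the first HS7 and the first HS14 library), and from 1134 to 672, 737 and 646 for their responses (without the first HS7 library at day 3, the second HS14 library at day 0 and the first HS14 library at day 3). When library totals replaced TMM, the share of called genes that were higher moved from 50.8% to 62.8% after 7 days at day 0, from 51.2% to 30.2% after 14 days at day 3, from 46.6% to 20.6% and from 51.2% to 22.1% between 14 and 7 days at day 0 and day 3, and from 50.2% to 36.9% for the 14-day against the control response. The replicate numbers pair nothing by the labels: over genes the deviations of same-numbered libraries correlated between groups at -0.051 to 0.041 in 15 pairs of groups. A replicate block changed no call of the 4 genes, and the calls over induction of control cells went from 6960 to 6856 genes with it. Depth limits Mmp3 at day 0.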
